A study of Mus musculus with 39 samples.

Results

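Collagen genes were followed across lung and colon of Cd177 knockout and wild-type mice. They were taken as every gene whose symbol is Col, a number, the letter a and a further number, which gave 44 of the 52081 genes with a symbol, out of 55357 genes in each tissue's table. At least 1 FPKM (fragments per kilobase of transcript per M mapped fragments, M being the metric prefix mega) in at least 4 libraries of a tissue was reached by 30 of the 44 in lung and 25 in colon, and these were tested.

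The 39 libraries were made from mRNA-enriched RNA of lung and colon of C57BL/6N mice. In each tissue the groups were Cd177 knockout mice with acute pancreatitis (KO AP), wild-type mice with acute pancreatitis (WT AP), knockout mice after a sham operation (KO sham) and wild-type mice after a sham operation (WT sham), with 5 libraries each but 4 in KO AP colon. Cd177 encodes a neutrophil surface protein, and pancreatitis, an inflamed pancreas, can harm other organs such as lung and gut. The labels give neither the deleted allele nor the means of inducing pancreatitis, nor the time of sampling, sex or age. They also do not say that each library is from its own animal, or whether lung and colon share animals, so p-values measure the spread between libraries, which may be technical.

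Collagens are the main structural proteins of the extracellular matrix, secreted as trimers wound into a rope-like helix. Fibrillar collagens form the tension-bearing fibrils made mostly by fibroblasts, type IV collagens form the sheet of every basement membrane, and type VI collagens form beaded filaments around cells. In lung the type IV network lies in the thin wall shared by alveolar epithelium and capillary endothelium. In colon it lies under the crypt epithelium and around vessels and muscle.

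Cd177 was listed at 0 in all KO libraries and was present in all WT libraries of both tissues. The libraries differed by genotype in depth as well: totals recovered from the FPKM steps were 77.0 to 95.4 M reads in KO lung, against 57.9 to 71.2 M reads in WT lung, and 77.7 to 98.6 M reads in KO colon, against 55.6 to 78.3 M reads in WT colon. Genotype and depth therefore cannot be told apart. KO lung libraries resembled their own group less, with mean correlations over all tested genes of 0.929 to 0.962, against 0.968 to 0.988 in WT lung; in colon the ranges were 0.934 to 0.954 in KO and 0.942 to 0.975 in WT. A mean correlation under 0.94 was found in lung for KO AP replicate 3, KO sham replicate 4 and KO sham replicate 5. In colon it was found for KO AP replicate 1, KO AP replicate 4 and KO sham replicate 5. The 5 lung epithelial markers, Sftpc among them, summed to 37750 to 153700 FPKM in lung libraries and to 0.312 to 3.098 FPKM in colon libraries. The 6 colon epithelial markers summed to 3355 to 10250 FPKM in colon.

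By FPKM, the most abundant collagen genes of WT sham lung were Col4a1 at 173 ± 14.4 FPKM and Col4a2 at 156 ± 11.2 FPKM (mean ± SD, n = 5). The type VI gene Col6a1 came next at 74.4 ± 6.72 FPKM, and lay well under both. The fibrillar genes Col1a2 and Col3a1 followed at 54.5 ± 13.1 and 47.03 ± 15.6 FPKM, which lay within each other's spread. In WT sham colon the order was different, with Col3a1 first at 88.4 ± 14.8 FPKM, Col6a1 at 49.4 ± 7.904, Col1a2 at 42.7 ± 5.26, Col6a2 at 37.5 ± 3.35 and Col4a1 at 33.3 ± 6.78 FPKM.

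The mix of collagen classes in lung differed between the genotypes. The 6 type IV genes took 28.7 ± 5.91% of the summed collagen FPKM in KO AP lung, against 47.9 ± 4.47% in WT AP lung, and 26.6 ± 4.92% in KO sham lung, against 52.6 ± 4.19% in WT sham lung (mean ± SD, n = 5 each). Their sum was 79.2 ± 16.8 FPKM in KO AP and 335.6 ± 94.4 FPKM in WT AP, and 104 ± 41.8 FPKM in KO sham and 402 ± 33.0 FPKM in WT sham. All 44 genes together summed to 276 ± 14.4 FPKM in KO AP lung, against 691 ± 143 FPKM in WT AP lung, and to 382 ± 104 FPKM in KO sham lung, against 766 ± 67.9 FPKM in WT sham lung. In colon the fibrillar class was the largest in every group, at 48.2 ± 5.32% in KO AP (n = 4), 49.7 ± 2.19% in WT AP, 49.1 ± 2.58% in KO sham and 46.6 ± 0.981% in WT sham (n = 5 each). Type IV genes took between 13.5% and 15.5% of the collagen FPKM in the colon group means.

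**Figure D1:**
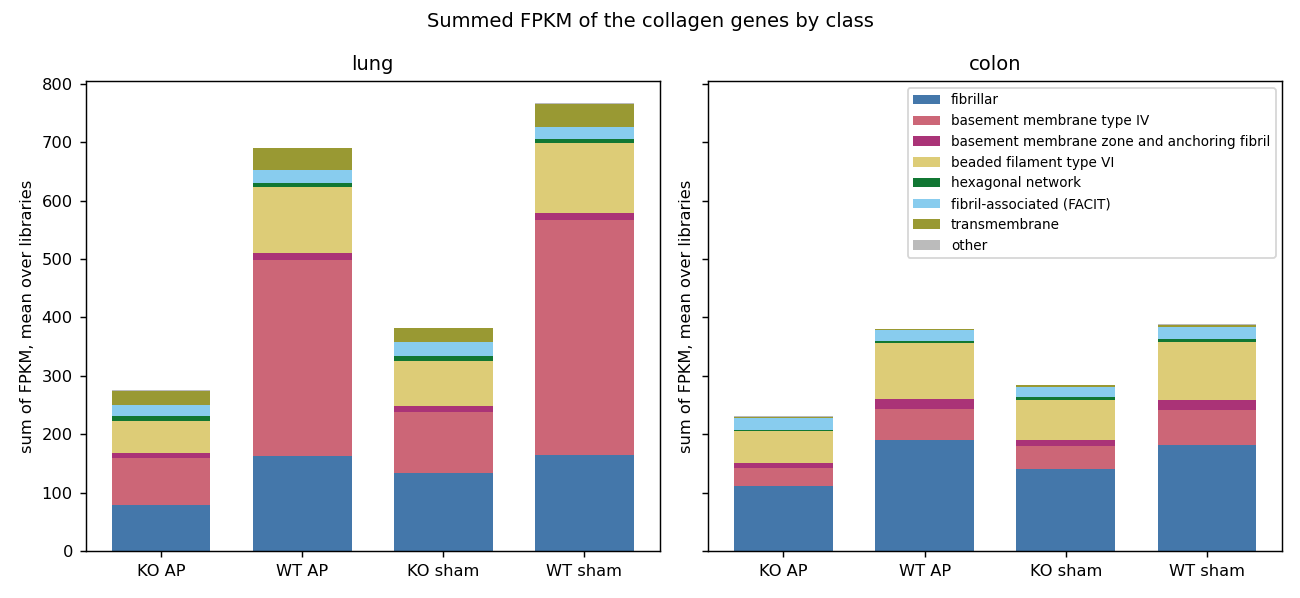
Bars stack the mean summed FPKM of the 8 collagen classes over the libraries of each group, for lung on the left and colon on the right, on a shared axis from 0. In lung the type IV segment is 79.2 FPKM in KO AP and 335.6 FPKM in WT AP, and 104 FPKM in KO sham and 402 FPKM in WT sham; in colon the fibrillar segment is the tallest in every bar.

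Type IV collagen showed the largest differences between KO and WT lung among the collagen genes. Col4a1 and Col4a2 encode the chains found in all basement membranes, while Col4a3, Col4a4 and Col4a5 encode chains that assemble with each other in the alveolar basement membrane. With pancreatitis 5 of the 6 type IV genes were lower in KO lung, and after sham all 6 were lower (limma, adjusted p under 0.05 over all genes tested), beside 28.1% of all 15978 genes lower with AP and 30.0% after sham. The median log2 difference over the 6 genes was -1.63 in AP and -1.65 in sham, beside 0.00 and -0.01 over all genes tested. Higher in KO were 27.6% and 28.8% of all genes, so that 55.8% in AP and 58.8% in sham were called in either direction.

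Col4a1 was at 19.7, 16.6, 33.3, 19.1 and 29.9 FPKM in KO AP lung, against 146, 152, 133, 73.2 and 192 FPKM in WT AP lung. After sham it was at 17.1, 26.9, 43.6, 62.2 and 41.4 FPKM in KO and 156, 166, 191, 186 and 167 FPKM in WT. All KO libraries lay below all WT libraries in both treatments; the lowest WT library was WT AP replicate 4. The log2 difference, KO minus WT of log2(FPKM + 1), was -2.49 ± 0.28 in AP (SE; limma adjusted p = 1.97e-06) and -2.27 ± 0.28 in sham (adjusted p = 2.76e-06).

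Col4a2, the partner chain of Col4a1, was at 28.2, 24.98, 32.02, 22.6 and 42.9 FPKM in KO AP lung, against 123, 147, 131, 69.95 and 174 FPKM in WT AP lung. The sham values were 17.1, 35.2, 53.4, 66.7 and 41.4 FPKM in KO and 149, 147, 172, 164 and 149 FPKM in WT. Here too the genotypes did not overlap, with log2 differences of -2.04 ± 0.28 in AP and -1.97 ± 0.28 in sham (limma adjusted p = 9.93e-06 and 9.5e-06).

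The Col4a1 and Col4a2 genes lie head to head, and a stretch at their starts is shown because both were lower in KO lung. In the RefSeq annotation of GRCm38.p6, which is not the mm39 build named for the deposited files, their starts lie at 11312826 and 11312805 of chromosome 8, so that the annotated transcripts, on opposite strands, overlap by 22 bases. Whether reads were counted by strand is not given, so reads in this overlap cannot be assigned to one gene. Of the upstream 250 bases of 32851 RefSeq promoter windows, 33.8% hold CCAAT on either strand, 12.4% TATAAA and 32.7% GGGCGG. A window was at hand for 35 of the 44 collagen genes, and 13 of these held CCAAT, 5 TATAAA and 21 GGGCGG. The 30 bases below are chr8:11312761-11312790 on the plus strand, with CCAAT in capitals, which begins 32 bases before the Col4a2 start and lies within the annotated Col4a1 transcript; a match is only a match of letters.
Col4a1 and Col4a2: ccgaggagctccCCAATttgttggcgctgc

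Col4a3, whose product is the target of the autoantibodies of Goodpasture disease, was at 2.32, 3.79, 4.01, 2.42 and 5.05 FPKM in KO AP lung, against 22.9, 27.7, 28.1, 13.6 and 28.9 FPKM in WT AP lung. After sham the values were 1.76, 3.92, 4.86, 7.46 and 4.32 FPKM in KO and 21.7, 24.1, 28.2, 32.1 and 27.1 FPKM in WT. Every KO library was under every WT library, by a log2 difference of -2.47 ± 0.25 in AP and -2.42 ± 0.25 in sham (limma adjusted p = 5.99e-07 and 3.93e-07).

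Col4a4, the chain that pairs with Col4a3, was at 5.79, 11.7, 5.82, 8.01 and 10.4 FPKM in KO AP lung, against 18.1, 22.8, 22.3, 15.3 and 23.9 FPKM in WT AP lung. After sham the KO libraries were at 5.22, 8.74, 9.43, 11.8 and 8.18 FPKM and the WT libraries at 20.5, 21.5, 24.8, 24.8 and 22.1 FPKM. The genotypes did not overlap in either treatment, but the log2 differences of -1.23 ± 0.19 and -1.33 ± 0.19 were smaller than those of Col4a3 (limma adjusted p = 3.19e-05 in AP and 1.05e-05 in sham).

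The X-linked chain Col4a5 averaged 9.64 ± 3.98 FPKM in KO AP lung and 18.7 ± 4.39 FPKM in WT AP lung, and 7.57 ± 3.03 FPKM in KO sham and 19.2 ± 3.11 FPKM in WT sham (SD, n = 5 each). It was lower in KO, at -0.93 ± 0.24 in AP, where KO AP replicates 2 and 5 lay above the lowest WT library, and at -1.29 ± 0.24 in sham, where the groups did not overlap (limma adjusted p = 0.00329 and 0.000181). Col4a6, which is found with Col4a5 around smooth muscle, was at 2.14 to 4.76 FPKM in KO AP and 3.45 to 4.35 FPKM in WT AP, a log2 difference of -0.10 ± 0.15 that did not pass (limma adjusted p = 0.573). After sham it was at 1.89 to 3.17 FPKM in KO and 3.42 to 4.66 FPKM in WT, without overlap (log2 -0.51 ± 0.15, limma adjusted p = 0.0062).

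**Figure D2:**
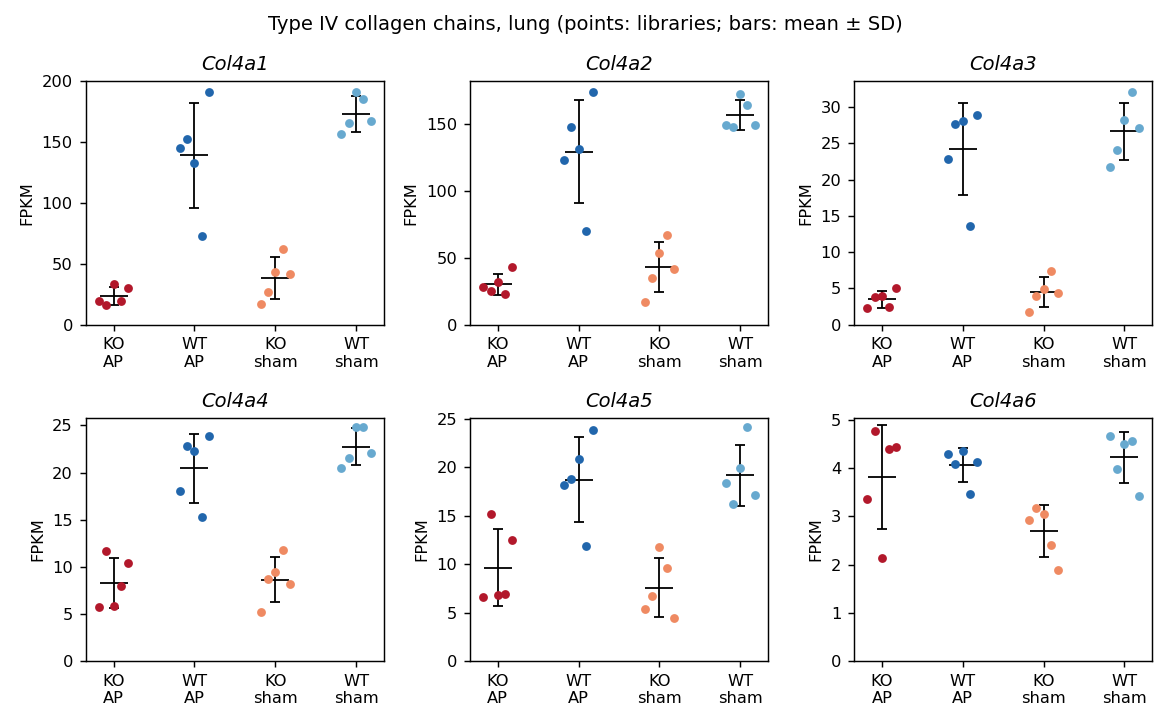
Each panel shows 1 type IV collagen gene in lung, with FPKM on the vertical axis from 0, a point for each library and the mean ± SD of each group. For Col4a1 to Col4a4 all KO points lie under all WT points of the same treatment, while for Col4a6 the AP groups overlap.

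The type IV genes were not all lower by the same factor, as ratios within a library show, in which the scaling of a library cancels. The FPKM ratio of Col4a3 to Col4a4 was 0.401, 0.324, 0.688, 0.302 and 0.486 in KO AP lung, against 1.26, 1.21, 1.26, 0.893 and 1.21 in WT AP lung. After sham it was 0.337, 0.448, 0.516, 0.633 and 0.528 in KO and 1.06, 1.12, 1.14, 1.29 and 1.23 in WT. The genotypes did not overlap in either treatment, with log2 differences of -1.46 and -1.27 (exact two-sided permutation p = 0.00794 in each, the smallest that 5 against 5 allows; 0.0194 after adjustment over 22 comparisons of ratios). The ratio of Col4a1 to Col4a2 averaged 0.788 ± 0.158 in KO AP lung and 1.08 ± 0.0681 in WT AP lung, and 0.903 ± 0.107 in KO sham lung and 1.11 ± 0.0320 in WT sham lung (SD, n = 5 each). It overlapped in AP, where 1 KO library reached 1.04 (exact permutation p = 0.0238, adjusted 0.0436), and not in sham (exact permutation p = 0.00794, adjusted 0.0194). In colon the same ratio was 1.09 ± 0.153 in KO AP (n = 4) and 1.43 ± 0.107 in WT AP (n = 5). After sham it was 1.12 ± 0.0449 in KO and 1.505 ± 0.0735 in WT (n = 5 each). It did not overlap in either treatment (exact permutation p = 0.0159 and 0.00794, adjusted 0.035 and 0.0194). Unequal differences were not confined to type IV. After sham, Col6a1 over Col6a2 in lung (log2 -0.50) and Col1a1 over Col3a1 in colon (log2 0.58) did not overlap either. The ratio of Col1a1 to Col1a2 overlapped in both tissues and treatments.

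**Figure D3:**
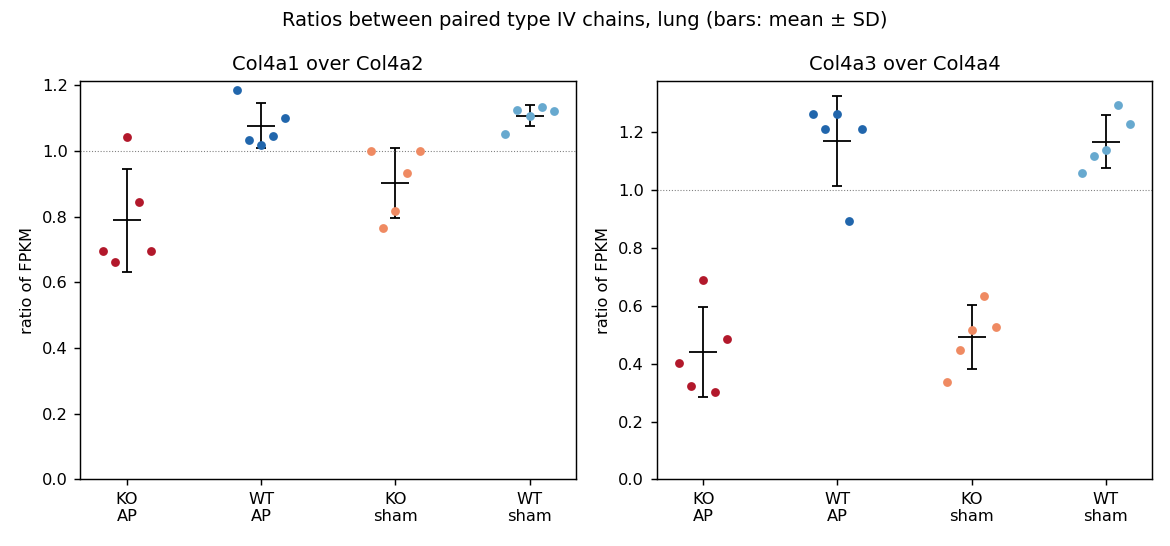
Points are lung libraries and bars the mean ± SD of the FPKM ratio of Col4a1 to Col4a2 on the left and of Col4a3 to Col4a4 on the right; the dotted line marks equal FPKM. The Col4a3 to Col4a4 ratio lies between 0.302 and 0.688 in the KO libraries and between 0.893 and 1.29 in the WT libraries.

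With AP 5 of the 7 tested fibrillar genes were lower in KO lung and 1 was higher (limma), beside 28.1% of all genes lower and 27.6% higher. After sham 2 were lower and 1 was higher, beside 30.0% and 28.8% of all genes, so the sham count of lower genes was near that of all genes. The median log2 difference of the 7 was -0.89 in AP and -0.32 in sham. Col1a1 and Col1a2 encode the chains of type I collagen and Col3a1 that of type III, which together form most interstitial fibrils.

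Col1a1 was at 20.2, 10.6, 12.2, 16.3 and 13.5 FPKM in KO AP lung, against 33.1, 39.2, 33.2, 22.96 and 35.2 FPKM in WT AP lung. After sham it was at 20.03, 30.8, 21.8, 48.3 and 20.8 FPKM in KO and 42.2, 25.9, 31.5, 39.4 and 31.2 FPKM in WT. The AP groups did not overlap, whereas the sham groups did, KO sham replicate 4 being the highest of all. The log2 difference was -1.13 ± 0.22 in AP (limma adjusted p = 0.00028) and -0.32 ± 0.22 in sham (adjusted p = 0.22).

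Col1a2 was at 35.1, 27.2, 23.04, 40.5 and 22.1 FPKM in KO AP lung, against 61.1, 58.4, 53.5, 40.1 and 60.9 FPKM in WT AP lung. Sham libraries were at 33.4, 42.4, 44.8, 59.6 and 57.3 FPKM in KO and 71.9, 40.5, 46.3, 64.4 and 49.6 FPKM in WT. In AP the highest KO library just passed the lowest WT library, and in sham the groups overlapped broadly. The log2 difference was -0.89 ± 0.19 in AP (limma adjusted p = 0.000825) and -0.19 ± 0.19 in sham (adjusted p = 0.405).

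Col3a1 was at 22.8, 15.1, 16.1, 19.5 and 9.01 FPKM in KO AP lung, against 52.1, 65.5, 46.99, 31.8 and 51.2 FPKM in WT AP lung. In sham lung the gene was at 24.5, 30.8, 26.8, 49.8 and 41.04 FPKM in KO and 62.2, 30.9, 37.2, 65.3 and 39.5 FPKM in WT. KO AP libraries lay under every library of the other groups. The log2 difference between KO and WT was -1.55 ± 0.25 in AP (limma adjusted p = 5.96e-05) and -0.42 ± 0.25 in sham (adjusted p = 0.163).

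Passing in AP and not in sham does not show that the genotype differences differ. The difference of the AP responses, KO minus WT, was -1.13 ± 0.36 for Col3a1, -0.81 ± 0.31 for Col1a1 and -0.70 ± 0.28 for Col1a2, and did not pass for any of them (limma adjusted p = 0.474, 0.523 and 0.528). No collagen gene passed this test in either tissue. At an unadjusted p under 0.05 it held 5 of the 30 collagen genes in lung, beside 1384 of all 15978 genes, and 0 of the 25 in colon. No gene of the 15978 tested in lung passed after adjustment.

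The promoters of the type I gene Col1a2 and the type III gene Col3a1, which were both lower in KO AP lung, are shown as the 250 RefSeq bases before each start in GRCm38.p6. Col1a2 is chr6:4505368-4505617 and Col3a1 chr1:45311288-45311537, both on the plus strand. Capitals mark CCAAT and GGGCGG in Col1a2 and TATAAA in Col3a1, searched on both strands, at the shares of all windows given for the type IV pair.
Col1a2: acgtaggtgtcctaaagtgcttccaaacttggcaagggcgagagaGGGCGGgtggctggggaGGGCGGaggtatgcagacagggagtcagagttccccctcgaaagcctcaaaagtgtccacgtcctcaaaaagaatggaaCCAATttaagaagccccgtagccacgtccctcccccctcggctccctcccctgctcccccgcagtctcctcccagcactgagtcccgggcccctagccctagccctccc
Col3a1: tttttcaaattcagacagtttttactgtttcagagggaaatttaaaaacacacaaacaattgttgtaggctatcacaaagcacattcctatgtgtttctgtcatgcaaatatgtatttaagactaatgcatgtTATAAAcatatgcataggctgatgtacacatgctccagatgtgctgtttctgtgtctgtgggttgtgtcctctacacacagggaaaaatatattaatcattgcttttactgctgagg

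Type V collagen nucleates fibrils of type I collagen. Col5a2 was at 4.29, 5.15, 4.92, 5.56 and 5.76 FPKM in KO AP lung, against 11.3, 14.9, 12.3, 9.64 and 13.8 FPKM in WT AP lung, and at 4.204, 5.58, 7.71, 11.3 and 7.101 FPKM in KO sham, against 15.2, 11.6, 13.7, 16.1 and 11.9 FPKM in WT sham. It did not overlap in either treatment (log2 -1.12 ± 0.17 and -0.90 ± 0.17, limma adjusted p = 3.5e-05 and 0.000223). Col5a1 was lower in KO, at -0.55 ± 0.15 in AP and -0.39 ± 0.15 in sham (limma adjusted p = 0.00406 and 0.0303), the sham call being lost without any 1 of 5 libraries (KO sham 1 or 3, WT sham 2, 3 or 4). Col5a3 lay between 0.701 and 2.29 FPKM in all lung libraries, with log2 differences of -0.01 ± 0.15 and 0.08 ± 0.15.

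Col27a1, a fibrillar collagen best known from cartilage and bone growth, went the other way. It was at 6.05, 8.84, 4.19, 7.16 and 4.61 FPKM in KO AP lung, against 3.25, 3.67, 4.103, 3.57 and 3.78 FPKM in WT AP lung, and the groups did not overlap. After sham it averaged 5.62 ± 0.946 FPKM in KO and 4.03 ± 0.567 FPKM in WT (SD, n = 5 each). Its log2 difference was 0.58 ± 0.15 in AP and 0.39 ± 0.15 in sham (limma adjusted p = 0.003 and 0.0305), and the sham call was lost without any 1 of 4 libraries (KO sham 2 or 5, WT sham 3 or 5).

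**Figure D4:**
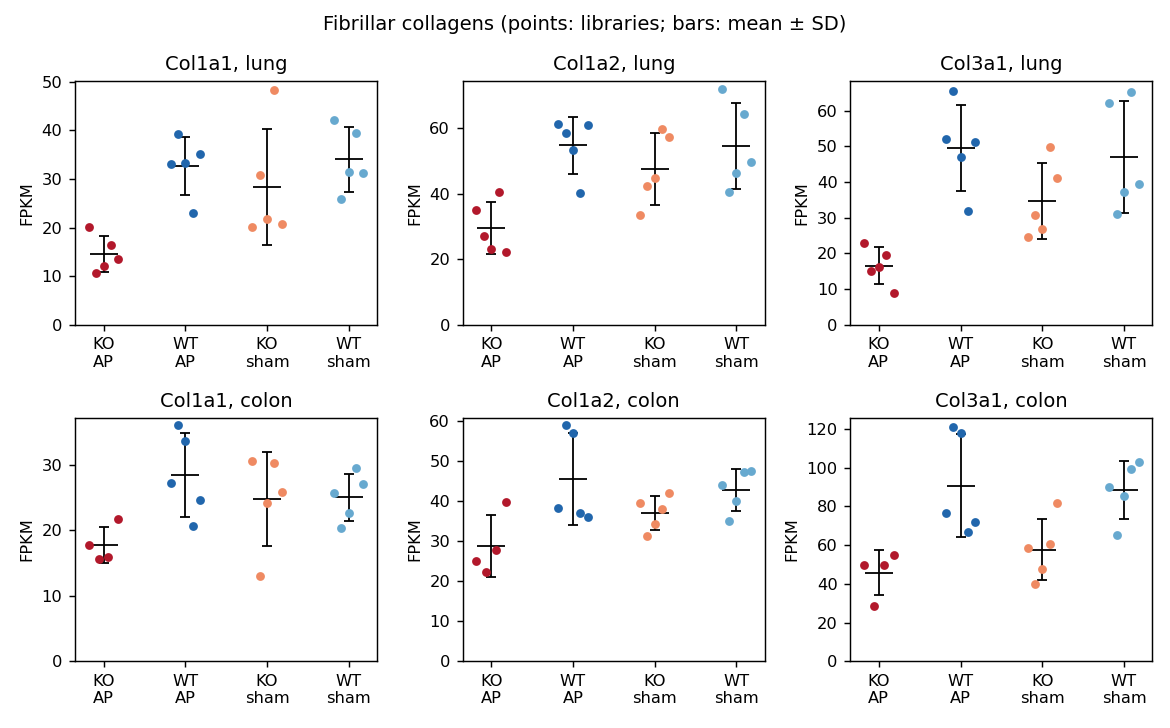
Panels show Col1a1, Col1a2 and Col3a1 in lung (top) and colon (bottom), with FPKM on the vertical axis from 0, a point for each library and the mean ± SD of each group. Lung Col3a1 lies at 9.01 to 22.8 FPKM in KO AP and at 31.8 to 65.4 FPKM in WT AP, while the sham groups overlap.

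Type VI collagen is assembled from the Col6a1 and Col6a2 chains with a longer partner such as Col6a3. In lung Col6a1 was at 28.6, 32.1, 33.9, 21.5 and 36.99 FPKM in KO AP, against 81.8, 70.01, 77.7, 46.7 and 81.4 FPKM in WT AP, and at 23.4, 42.8, 42.95, 63.95 and 32.04 FPKM in KO sham, against 82.3, 68.5, 69.4, 81.2 and 70.7 FPKM in WT sham. The genotypes did not overlap in either treatment (log2 -1.19 ± 0.21 and -0.91 ± 0.21, limma adjusted p = 0.000112 and 0.000998). Col6a2 was at 19.8, 17.8, 17.97, 16.9 and 14.7 FPKM in KO AP lung, against 37.6, 32.8, 36.7, 23.7 and 33.6 FPKM in WT AP lung, without overlap (log2 -0.87 ± 0.19, limma adjusted p = 0.000665), but its sham difference of -0.42 ± 0.19 did not pass (adjusted p = 0.0598). Col6a3 passed in neither treatment, at -0.44 ± 0.23 and -0.20 ± 0.23 (limma adjusted p = 0.118 and 0.473).

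Among collagens of the basement membrane zone, Col18a1, the precursor of endostatin, was at 5.08, 4.46, 4.003, 3.94 and 4.16 FPKM in KO AP lung, against 7.67, 8.96, 8.84, 6.63 and 8.27 FPKM in WT AP lung, without overlap (log2 -0.77 ± 0.14, limma adjusted p = 0.000174). Its sham difference was -0.29 ± 0.14 (limma adjusted p = 0.08). Col15a1, its relative in vessel and muscle basement membranes, was higher in KO sham lung, at 2.04, 1.57, 1.54, 1.48 and 1.72 FPKM, against 1.29, 0.665, 0.859, 1.18 and 0.6704 FPKM in WT sham, without overlap (log2 0.48 ± 0.15, limma adjusted p = 0.012). In AP the difference was -0.09 ± 0.15 (limma adjusted p = 0.629). Col7a1, the anchoring fibril collagen, was at 2.15, 4.97, 2.83, 4.001 and 3.99 FPKM in KO AP lung and 2.07, 2.34, 2.21, 2.41 and 3.096 FPKM in WT AP lung, overlapping groups with a log2 difference of 0.39 ± 0.16 (limma adjusted p = 0.0463) that was lost without any 1 of 11 libraries (KO AP 2, 4 or 5, WT AP 1, 2, 3 or 4, KO sham 3, WT sham 2, 3 or 4).

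The transmembrane collagen Col13a1, an adhesion protein of cell surfaces, was at 5.39, 6.05, 5.41, 2.35 and 5.73 FPKM in KO AP lung, against 19.7, 16.8, 21.3, 11.9 and 17.3 FPKM in WT AP lung. Sham lung had 3.23, 5.61, 7.45, 12.7 and 9.67 FPKM in KO and 16.9, 16.2, 14.99, 22.2 and 18.5 FPKM in WT. All KO libraries lay under all WT libraries in both treatments, with log2 differences of -1.64 ± 0.26 and -1.20 ± 0.26 (limma adjusted p = 3.54e-05 and 0.000542). Col23a1, without overlap, and the hemidesmosome collagen Col17a1, with overlap, were lower in KO after sham, at -0.49 ± 0.18 and -0.49 ± 0.18 (limma adjusted p = 0.0265 and 0.0277). The Col23a1 call was lost without any 1 of 2 libraries (KO sham 1 or 4) and the Col17a1 call without any 1 of 4 libraries (KO sham 2 or 5, WT sham 1 or 4). In AP their differences were -0.05 ± 0.18 and -0.16 ± 0.18 and did not pass. Col17a1 reached 1 FPKM in 8 WT but only 1 KO lung library, so it entered the test through WT, in which it is high.

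Col8a2, a chain of the hexagonal lattices under corneal and vascular endothelium, was higher in KO lung. It was at 9.34, 8.22, 4.797, 7.45 and 7.71 FPKM in KO AP, against 3.76, 2.78, 4.76, 3.76 and 3.41 FPKM in WT AP, and at 12.01, 8.58, 6.799, 4.34 and 4.499 FPKM in KO sham, against 3.56, 3.91, 3.52, 3.19 and 4.25 FPKM in WT sham. The groups did not overlap, and the log2 differences were 0.84 ± 0.20 and 0.74 ± 0.20 (limma adjusted p = 0.00174 and 0.00439). Its partner chain Col8a1 was lower in KO sham, at -0.36 ± 0.15 (limma adjusted p = 0.0462), a call lost without any 1 of 12 libraries (KO AP 1, WT AP 1, 2, 3 or 5, KO sham 1, 2 or 5, WT sham 1, 2, 3 or 4), and did not pass in AP, at -0.25 ± 0.15 (adjusted p = 0.159). Col26a1, at most 1.57 FPKM in any library, was higher in KO AP, at 0.57 ± 0.19 (limma adjusted p = 0.0143); all 5 libraries in which it reached 1 FPKM were KO, so that it entered the test only through the genotype in which it is high, and the call says nothing beyond that.

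Of the 5 tested collagens associated with fibril surfaces, 1 was lower in KO AP lung, near the 28.1% of all genes. Col14a1, which binds fibrils of type I collagen, was at 4.204, 3.37, 4.77, 3.402 and 1.71 FPKM in KO AP lung, against 8.29, 7.17, 8.81, 3.68 and 7.15 FPKM in WT AP lung (log2 -0.84 ± 0.22, limma adjusted p = 0.00289), and it was the gene that passed in AP. None passed in sham, where 0 of the 5 were called by limma and Col14a1 was at -0.43 ± 0.22 (adjusted p = 0.0905). Col9a3, Col12a1, Col16a1 and Col20a1 had log2 differences between -0.36 and 0.11 in AP and between -0.02 and 0.35 in sham.

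Over all 30 tested collagen genes in lung, 15 were lower and 4 higher in KO with AP, and 13 lower and 3 higher after sham (limma), with medians of -0.49 and -0.37 beside 0.00 and -0.01 over all genes. Col26a1 is among the 4, and 3 were higher in AP without it. Col17a1, which entered the test through WT, is among the 13 lower after sham. These counts stand beside 28.1% lower and 27.6% higher among all genes in AP, and 30.0% lower and 28.8% higher in sham. Of the 15 genes lower in AP and the 13 lower in sham, 9 were shared, 60.0% and 69.2% of the 2 lists. In 12 of the 30 genes every KO AP library lay under every WT AP library, beside 18.7% of all genes, and in 10 every KO sham library lay under every WT sham library, beside 22.5%. Col8a2 and Col27a1 lay wholly above in AP, and Col8a2 and Col15a1 in sham, beside 19.3% of all genes in each. Without the 3 lung libraries under the correlation limit the counts were 16 lower and 4 higher in AP and 16 lower and 3 higher in sham. Calls over all 15978 genes also rose without them, to 5069 lower and 4937 higher in AP, and 5182 lower and 4930 higher in sham.

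**Figure D5:**
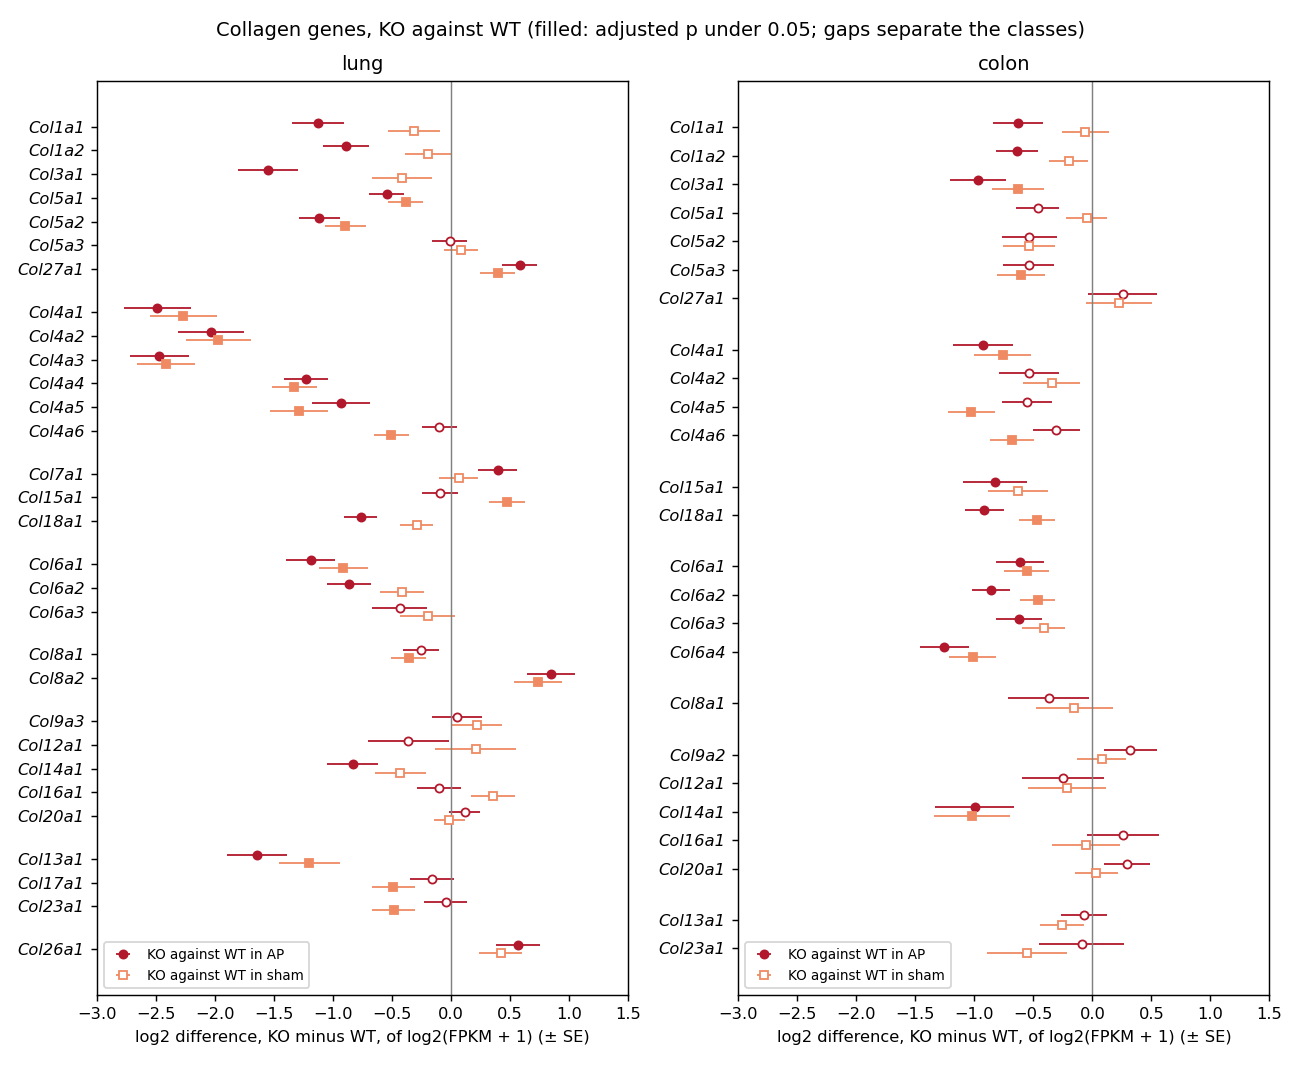
Points are log2 differences, KO minus WT of log2(FPKM + 1), with SE bars, for the tested collagen genes in lung (left) and colon (right), circles for AP and squares for sham; filled points have a limma adjusted p under 0.05 and gaps separate the classes. In lung the type IV genes reach -2.49, and Col8a2 and Col27a1 lie to the right of 0; in colon all filled points lie to the left.

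Long genes as a whole were lower in KO lung, and collagen genes are long. Lengths were read from a GENCODE annotation of the GRCm38 build, not that of the files. The median of the longest annotated transcript was 5794 bases for the tested collagen genes and 2982 bases for all tested genes, and the log2 difference was the lower the longer the transcript, with Spearman coefficients of -0.339 in AP and -0.435 in sham over 15879 genes, which are not independent replicates. Of the 2996 tested lung genes with a transcript of at least 5000 bases, 53.4% were lower in KO with AP and 62.1% after sham, and of the collagen genes 24 were of that length. The share of these collagen genes called lower, 12 and 11 of 24, was under that of all long genes in both treatments. The median log2 difference of these collagen genes was -0.49 in AP and -0.37 in sham, beside -0.36 and -0.49 for all long genes. The part of length in these differences was not tested beyond these values.

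The scale also bears on the smaller differences. When FPKM was rescaled to TPM, a unit in which every library has the same sum, the median gene shifted to -0.18 in lung AP and -0.26 in lung sham, and to -0.13 and -0.15 in colon. On that scale 16 collagen genes were lower and 3 higher in AP lung, and 17 were lower and 0 higher in sham lung. Of all 15978 genes, 5492 were lower and 2965 higher on the TPM scale in AP lung, and 6209 lower and 2891 higher in sham lung. Col8a2, Col15a1 and Col27a1 had log2 differences of 0.55 ± 0.24, 0.40 ± 0.21 and 0.18 ± 0.17 in sham but did not pass (limma adjusted p = 0.0616, 0.113 and 0.397). The 6 type IV genes stayed lower in sham and the same 5 in AP.

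Markers of endothelium were also lower in KO lung. The marker calls below stand beside 28.1% of all genes lower and 27.6% higher in AP, and 30.0% and 28.8% in sham. The 5 endothelial markers summed to 189 to 284 FPKM in KO AP, against 544 to 692 FPKM in WT AP, and to 130.5 to 427 FPKM in KO sham, against 678 to 773 FPKM in WT sham. Of them, Pecam1, Cdh5, Tie1 and Kdr were lower in KO in each treatment, Cdh5, the adherens junction cadherin of endothelium, being at -2.42 ± 0.28 and -2.40 ± 0.28 (limma adjusted p = 2.65e-06 and 1.63e-06). The 5 fibroblast markers summed to 98.7 to 119 FPKM in KO AP, against 200.4 to 241 FPKM in WT AP, and to 81.8 to 212 FPKM in KO sham, against 209 to 235 FPKM in WT sham. In AP 2 of them were lower, Pdgfra at -1.78 ± 0.22 and Dpt at -2.10 ± 0.23, and in sham the same 2 were lower while Mfap5 and Pi16 were higher (limma). The 6 smooth muscle and pericyte markers summed to 204 to 571 FPKM in KO AP, against 144 to 215 FPKM in WT AP, with Acta2 higher at 1.23 ± 0.18 and Pdgfrb lower at -0.88 ± 0.15, and to 193 to 355.5 FPKM in KO sham, against 150.2 to 174.5 FPKM in WT sham, without overlap. The 3 leukocyte markers, all lower in KO AP, summed to 51.5 to 144 FPKM there and to 148 to 299 FPKM in WT AP. After sham they overlapped, at 76.5 to 312 FPKM in KO and 121 to 210.2 FPKM in WT. Adipocyte markers reached 515 FPKM and cardiac muscle markers 1711 FPKM in KO AP lung, against at most 27.5 and 299.6 FPKM in WT AP lung. These are the highest libraries. The KO AP medians were lower, at 2.41 and 178.6 FPKM, against 23.3 and 194.8 FPKM in WT AP. Mitochondrially encoded genes took 4.96 to 14.0% of the FPKM in KO AP lung, against 5.13 to 11.4% in WT AP lung, and 2.49 to 8.64% in KO sham, against 4.77 to 6.62% in WT sham. In bulk tissue fewer cells of a type and less RNA per cell cannot be told apart, and the part of cell composition or RNA quality in the collagen differences was not tested.

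Genes that work with collagens were described by the same test in lung. Of 15 tested partners of type IV collagen in basement membranes, 12 were lower in KO with AP and 14 after sham, 0 were higher, and the medians were -1.08 and -1.18 on the log2 scale. Over all genes 28.1% were lower and 27.6% higher in AP, and 30.0% lower and 28.8% higher in sham. Among them the laminin chains Lama3 and Lamb1 were at -2.64 ± 0.29 and -1.67 ± 0.19 in AP and at -2.55 ± 0.29 and -1.56 ± 0.19 in sham. Nid1, the linker between laminin and type IV collagen, was at -1.77 ± 0.20 and -1.89 ± 0.20, and Pxdn, the peroxidase that cross-links type IV collagen, at -1.73 ± 0.22 and -1.66 ± 0.22.

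Of 29 tested genes of collagen biosynthesis and processing, 13 were lower and 1 higher in KO lung with AP, and 12 lower and 6 higher after sham (limma, medians -0.26 and -0.22), beside 28.1% of all genes lower and 27.6% higher in AP and 30.0% and 28.8% in sham. The cross-linking oxidases led, with Lox at -2.30 ± 0.39 and -2.47 ± 0.39 and Loxl2 at -1.17 ± 0.11 and -0.93 ± 0.11, together with Plod2, a lysyl hydroxylase, at -1.32 ± 0.21 and -1.55 ± 0.21. The 1 gene higher in AP was P4hb, a subunit of prolyl hydroxylase and a general disulfide isomerase, at 0.51 ± 0.15 in AP and 0.88 ± 0.15 in sham; it is named after its values were seen. Of 7 tested collagen receptors, 5 were lower in AP and 4 in sham, among them Itga1 at -1.14 ± 0.21 and -1.12 ± 0.21, its partner Itgb1 at -1.12 ± 0.14 and -0.91 ± 0.14, and the tyrosine kinase Ddr2 at -0.85 ± 0.15 and -0.78 ± 0.15. Of 7 proteoglycans that coat fibrils, 5 were lower in each treatment, such as Ogn at -1.85 ± 0.26 and -2.07 ± 0.26. Of 6 tested genes of collagen turnover, 3 were lower and 1 higher in AP and 1 was higher in sham, beside the same shares of all genes; the higher one was Ctsk, the collagen-cleaving cathepsin, at 0.78 ± 0.21 and 1.41 ± 0.21.

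Pancreatitis against sham gave no call for a collagen gene in lung of either genotype. In WT lung 0 of the 30 collagen genes passed by limma, beside 0.0814% of all genes called, 0.025% higher and 0.0563% lower. An unadjusted p under 0.05 was found for 0 of the 30, beside 1066 of all 15978 genes. The log2 differences, AP minus sham, ran from -0.38 to 0.16 with a median of -0.04. None of the 30 had all WT AP libraries on 1 side of all WT sham libraries, beside 1.21% of all genes higher and 3.84% lower. In KO lung 0 of 30 passed by limma, beside 0.0125% of all genes. An unadjusted p under 0.05 was found in KO lung for 11 of the 30, beside 2234 of all 15978 genes. There the median was -0.30 and the largest difference that of Col3a1, -1.03 ± 0.25 (limma adjusted p = 0.127), whose KO AP libraries all lay under the KO sham libraries, as did 0.376% of all genes; none lay wholly above, beside 0.532%. Col1a1 was at -0.86 ± 0.22 and Col1a2 at -0.67 ± 0.19. Without KO sham replicate 1, Col1a1, Col3a1 and Col6a2 were called lower, at limma adjusted p = 0.0474, 0.0471 and 0.0367. The count over all genes in that setting is not given here. Calls over all genes in KO lung also moved with single libraries, from 2 higher and 0 lower to 114 higher and 20 lower without KO AP replicate 3. These comparisons share the AP or sham libraries with the genotype comparisons.

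In colon 25 collagen genes were tested. With AP 11 were lower in KO and 0 higher by limma, beside 10.9% of all genes lower and 7.37% higher (18.3% in either direction). After sham 10 were lower and 0 higher by limma, beside 15.4% and 16.0% (31.4% in either direction). Col6a4 is among the 11 and the 10, and Col4a6 among the 10. They reached 1 FPKM in 3 and 2 KO but 10 and 8 WT colon libraries, so both entered the test through WT. Mitochondrially encoded genes took 10.6 to 19.1% of the FPKM in KO AP colon (median 15.3%), against 7.02 to 11.6% in WT AP colon (median 9.49%). After sham they took 4.62 to 13.5% in KO and 7.47 to 14.1% in WT (medians 7.53% and 8.31%). The part of this share in the colon differences was not tested. At an unadjusted p under 0.05 the limma test held 16 of the 25 in AP and 13 in sham. The 18.3% and 31.4% of all genes called after adjustment meet that threshold too, so the share of all genes is at least as large. The median log2 difference was -0.54 in AP and -0.46 in sham, beside -0.01 and 0.01 over all genes. Of the lower genes 7 were shared by AP and sham, 63.6% and 70.0% of the 2 lists. In AP 8 of the 11 were among the 15 lower in lung, 72.7% and 53.3%, and in sham 4 of the 10 were among the 13 lower in lung, 40.0% and 30.8%. The 15 and the 13 are of 30 collagen genes tested in lung, so the 40.0% in sham was near the share of all lung collagen genes. Col6a4 was not tested in lung and could not be shared.

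Col3a1, the most abundant collagen gene of colon, was at 49.7, 28.7, 49.5 and 54.8 FPKM in KO AP, against 76.5, 121, 118, 66.6 and 71.8 FPKM in WT AP, without overlap. After sham it was at 58.6, 39.98, 47.5, 60.5 and 81.5 FPKM in KO and 89.8, 64.97, 85.4, 99.2 and 103 FPKM in WT, with overlap. The log2 differences were -0.97 ± 0.24 and -0.63 ± 0.22 (limma adjusted p = 0.00968 and 0.0374), the sham call being lost without any 1 of 7 libraries (KO sham 2, 3 or 4, WT sham 1, 3, 4 or 5).

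Both type I collagen genes were lower in KO colon with AP, and neither passed after sham. Col1a1 was at 17.8, 15.7, 15.9 and 21.6 FPKM in KO AP colon, against 27.2, 36.0, 33.6, 20.6 and 24.6 FPKM in WT AP colon, and at 30.6, 13.02, 24.2, 30.2 and 25.9 FPKM in KO sham, against 25.6, 20.4, 22.6, 29.4 and 27.1 FPKM in WT sham. The AP groups overlapped at 1 library and the sham groups throughout, with log2 differences of -0.63 ± 0.21 and -0.06 ± 0.20 (limma adjusted p = 0.0455 and 0.847). Col1a2 was at 25.0, 22.4, 27.8 and 39.8 FPKM in KO AP colon, against 38.2, 58.9, 57.01, 36.99 and 36.04 FPKM in WT AP colon (log2 -0.64 ± 0.18, limma adjusted p = 0.0192), and after sham it averaged 36.99 ± 4.31 FPKM in KO and 42.7 ± 5.26 FPKM in WT (log2 -0.20 ± 0.17, adjusted p = 0.379). The Col1a1 call in AP was lost without any 1 of 13 libraries (KO AP 1, 3 or 4, WT AP 1, 2, 3 or 5, KO sham 3 or 5, WT sham 1, 3, 4 or 5), and the Col1a2 call without any 1 of 3 libraries (KO AP 3, WT AP 2 or 3).

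Of the type IV genes, Col4a3 and Col4a4 were under 0.2 FPKM in every colon library and were not tested. Col4a1 was at 11.3, 14.2, 18.7 and 15.1 FPKM in KO AP colon, against 28.9, 38.6, 36.9, 19.3 and 24.1 FPKM in WT AP colon, and at 23.4, 9.34, 25.5, 19.6 and 21.6 FPKM in KO sham, against 34.3, 22.3, 34.02, 34.8 and 40.98 FPKM in WT sham. It did not overlap in AP (log2 -0.93 ± 0.26, limma adjusted p = 0.0188) and overlapped in sham (log2 -0.76 ± 0.24, adjusted p = 0.0239). The AP call was lost without any 1 of 2 libraries (WT AP 2 or 3) and the sham call without any 1 of 3 libraries (KO sham 2, WT sham 3 or 5). Col4a2 passed in neither, at -0.54 ± 0.25 and -0.35 ± 0.24 (limma adjusted p = 0.145 and 0.28).

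The neighbouring X-linked genes Col4a5 and Col4a6, whose starts lie 1343 bases apart, were lower in KO sham colon. Col4a5 was at 1.79, 0.983, 0.6696, 1.13 and 1.24 FPKM in KO sham, against 3.48, 2.0, 3.89, 3.61 and 4.08 FPKM in WT sham, without overlap (log2 -1.03 ± 0.20, limma adjusted p = 0.00138). Col4a6 was at 0.9602, 0.507, 0.441, 0.862 and 0.636 FPKM in KO sham, against 2.07, 1.04, 1.83, 1.596 and 2.004 FPKM in WT sham, also without overlap (log2 -0.68 ± 0.18, limma adjusted p = 0.00985). In AP their differences of -0.55 ± 0.21 and -0.30 ± 0.20 did not pass (limma adjusted p = 0.0767 and 0.291). Col4a6 reached 1 FPKM in 8 WT but only 2 KO colon libraries, so it entered the test through WT, in which it is high.

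All 4 tested type VI genes were lower in KO AP colon, and 3 of them after sham, beside 10.9% and 15.4% of all genes (limma). Col6a4, an alternative to Col6a3, was at 0.239, 0.537, 0.879 and 1.97 FPKM in KO AP, against 3.14, 3.56, 3.94, 3.68 and 2.396 FPKM in WT AP, and at 1.49, 1.84, 0.821, 0.761 and 0.817 FPKM in KO sham, against 2.66, 3.42, 2.96, 3.53 and 3.79 FPKM in WT sham. The genotypes did not overlap, and the log2 differences of -1.25 ± 0.21 and -1.01 ± 0.20 had the lowest adjusted p among the collagen genes in AP (0.00123, limma) and 0.00139 in sham. Col6a4 reached 1 FPKM in 10 WT but only 3 KO colon libraries, so it entered the test through WT, in which it is high. Col6a2 was at 17.2, 17.2, 19.3 and 25.5 FPKM in KO AP, against 32.1, 42.9, 46.2, 37.5 and 26.4 FPKM in WT AP, and did not overlap in either treatment (log2 -0.86 ± 0.16 and -0.46 ± 0.15, limma adjusted p = 0.00209 and 0.0248). Col6a1 was at -0.62 ± 0.20 and -0.56 ± 0.19, and Col6a3 at -0.62 ± 0.20 in AP, with a sham difference of -0.41 ± 0.18 that did not pass (limma adjusted p = 0.0956). The Col6a2 sham call was lost without any 1 of 3 libraries (KO sham 2 or 3, WT sham 5), and the Col6a3 AP call without any 1 of 5 libraries (KO AP 1 or 3, WT AP 1, 2 or 3). For Col6a1 the AP call was lost without any 1 of 7 libraries (KO AP 1, 3 or 4, WT AP 2, 3 or 4, WT sham 1), and the sham call without any 1 of 6 libraries (KO sham 2 or 3, WT sham 1, 3, 4 or 5).

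Col18a1 was at 3.66, 5.596, 5.13 and 6.599 FPKM in KO AP colon, against 8.75, 12.2, 13.2, 8.36 and 11.3 FPKM in WT AP colon, without overlap (log2 -0.92 ± 0.16, limma adjusted p = 0.00178; sham -0.47 ± 0.15, adjusted p = 0.0277). Col14a1 was at 1.32, 0.733, 0.552 and 1.99 FPKM in KO AP colon, against 2.54, 6.26, 4.98, 2.603 and 1.23 FPKM in WT AP colon, with overlap (log2 -0.999 ± 0.34, limma adjusted p = 0.0469), and its sham difference was -1.02 ± 0.32 (adjusted p = 0.0214). Col15a1 was lower in AP, at -0.83 ± 0.27 (limma adjusted p = 0.0397), and Col5a3 in sham, at -0.61 ± 0.21 (adjusted p = 0.0325). The Col18a1 sham call was lost without any 1 of 5 libraries (KO sham 1, 2 or 3, WT sham 4 or 5), the Col15a1 call without any 1 of 5 libraries (KO AP 3 or 4, WT AP 2, 3 or 4) and the Col5a3 call without any 1 of 7 libraries (KO sham 2, 3 or 5, WT sham 1, 3, 4 or 5). The Col14a1 call was lost in AP without any 1 of 12 libraries (KO AP 1, 3 or 4, WT AP 1, 2, 3 or 4, KO sham 3, WT sham 1, 3, 4 or 5) and in sham without any 1 of 2 libraries (KO sham 2, WT sham 5).

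The colon counts rested on few libraries. Without WT AP replicate 2 or 3 the AP count was 4, without KO AP replicate 3 it was 5, and without KO AP replicate 1 or 4 it was 7, in place of 11. Without KO sham replicate 2 or WT sham replicate 5 the sham count was 3, without KO sham replicate 3 it was 5, and without WT sham replicate 3 or 4 it was 6, in place of 10. Col18a1, Col6a2, Col3a1, Col1a2, Col4a1 and Col6a4 were the 6 genes called lower in AP under TPM and upper quartile scaling alike. Without the 3 colon libraries under the correlation limit, which left 2 KO AP libraries, 5 genes were lower and Col9a2, Col16a1 and Col20a1 were higher in AP, and 11 were lower in sham. Counts over all colon genes with these or single libraries left out are not given here. Whether the collagen counts moved more than those of all genes was not tested. Col9a2 reached 1 FPKM in 4 libraries, all KO, and so entered the test only through that genotype.

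In 5 of the 25 genes all KO AP colon libraries lay under all WT AP libraries, beside 8.61% of all genes, and in 4 all KO sham libraries lay under all WT sham libraries, beside 8.15%. None lay wholly above, beside 6.76% of all genes in AP and 9.13% in sham. Col6a4 is among the 5 and the 4, and Col4a6 among the 4, both of which entered the test through WT. Of the 2804 tested colon genes with a transcript of at least 5000 bases, 10.4% were lower in KO with AP and 34.5% after sham, and among the 21 collagen genes of that length 9 and 8 were lower. The sham share of these collagen genes was near that of all long genes. Spearman coefficients of the log2 difference with length were -0.0513 in AP and -0.317 in sham over 14937 colon genes. The part of length in colon was not tested beyond these values. Endothelial markers summed to 6.32 to 13.4 FPKM in KO AP colon, against 16.4 to 28.0 FPKM in WT AP colon, and to 12.3 to 15.8 FPKM in KO sham, against 25.5 to 33.4 FPKM in WT sham. Fibroblast markers summed to 31.7 to 61.7 FPKM in KO AP, against 46.2 to 85.3 FPKM in WT AP, and to 36.6 to 60.5 FPKM in KO sham, against 74.2 to 113 FPKM in WT sham. Leukocyte markers summed to 17.03 to 65.2 FPKM in KO AP, against 82.3 to 339 FPKM in WT AP, and to 23.3 to 180.3 FPKM in KO sham, against 104 to 205 FPKM in WT sham. Smooth muscle and pericyte markers summed to 847 to 1736 FPKM in KO AP, against 176 to 1020.0 FPKM in WT AP, and, without overlap, to 988 to 2743 FPKM in KO sham, against 505.5 to 745 FPKM in WT sham. The part of these cells in the colon differences was not tested.

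Of the collagen partners in colon, 3 of 15 tested basement membrane genes were lower in KO with AP and 10 after sham, with Lamb1 at -1.57 ± 0.20 and -1.14 ± 0.19 (limma). Over all colon genes 10.9% were lower and 7.37% higher in AP, and 15.4% lower and 16.0% higher in sham. Of 24 tested biosynthesis and processing genes, 3 were lower in AP, and 4 were lower and 1 higher in sham, among them Lox at -0.72 ± 0.18 and -1.01 ± 0.17; the counts of lower genes were near the shares of all genes. Mmp2, a gelatinase, was at -1.18 ± 0.16 and -0.79 ± 0.15, and was 1 of 2 lower turnover genes of 5 tested in each treatment. Of 7 tested receptors 3 were lower in each treatment, and of 6 proteoglycans 0 passed in AP by limma and 1, Dcn, was lower in sham.

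Pancreatitis against sham gave no collagen call in colon. By limma 0 of 25 passed in WT colon and 0 of 25 in KO colon, beside 0.0% and 0.04% of all genes called (in KO, 0.02% higher and 0.02% lower). An unadjusted p under 0.05 was found for 0 of 25 in WT colon and for 2, Col1a2 and Col6a2, in KO colon. The share of all colon genes at that threshold is not given here. No collagen gene had AP libraries wholly on 1 side of sham libraries, beside 1.29% of all genes higher and 1.09% lower in WT colon and 1.56% higher and 1.31% lower in KO colon. The medians, AP minus sham, were -0.10 in WT and -0.28 in KO colon.

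Of the 14 collagen genes not tested in lung, 13 never reached 1 FPKM, and Col11a2 did so in 3 libraries, with at most 2.08 FPKM. They include Col2a1, Col9a1, Col10a1 and Col11a1, collagens of cartilage, each at or under 0.377 FPKM in every lung library. Of the 9 cartilage markers 8 never reached 1 FPKM in lung. Of the 19 not tested in colon, 17 stayed under 1 FPKM, and Col8a2 and Col9a3 reached it in 1 library each. None of the 44 genes was at 0 in every library of a tissue.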

How the data were processed

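RNA sequencing libraries of lung (20) and colon (19) were grouped by tissue, genotype and treatment as labelled. RNA was isolated with Trizol, mRNA was enriched and libraries were read on an Illumina instrument, per the labels' protocols. The mm39 build, StringTie 1.3.3b and HISAT2 2.1.0 are named in the submitters' processing notes, with no role. The authors deposited 1 table of FPKM values per tissue, with 55357 genes, of which 52081 have a symbol; strand use is not given in the sources used here. The lowest FPKM steps of genes with a single transcript gave the total reads per library, with at least 98.2% of values whole within 0.01 read.

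Tests on log2(FPKM + 1) took the genes that reached 1 FPKM in 4 or more libraries of the tissue; this scale understates changes of low genes. Each tissue was fitted alone over its 4 groups with limma 3.58.1 (moderated, Benjamini-Hochberg adjusted over all genes tested) in R 4.3.3, a procedure checked on simulated data. Ratios were compared by exact two-sided permutation in Python 3.11.15. The collagen members, classes, pathway lists and markers were chosen with earlier results of these data known. Col1a1, Col1a2, Col3a1, Col4a1, Col4a2 and Col4a3 were always given in full, as were the 2 members with the lowest p of each class and comparison with a call; of a pathway list up to 4 members with the lowest p were named. Alternatives were a pseudocount of 0.1 FPKM, no filter, TPM and upper quartile scaling, a replicate block, and leaving out single libraries or those with a mean correlation under 0.94.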

Additional observations from a re-analysis of the deposited data

Results flagged for a closer look

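In 11 of 220 groups of 4 or 5 libraries, 1 library of a collagen gene stood apart from the others by a gap beyond Dixon's critical value; chance alone flags about 1 in 20 groups. In lung, WT sham replicate 4 was high for Col5a3, at 1.32 FPKM with the others at 1.05 to 1.09 FPKM, and for Col6a3, at 17.1 FPKM with the others at 9.11 to 10.3 FPKM. KO AP replicate 4 was low for Col13a1, at 2.35 FPKM with the others at 5.39 to 6.05 FPKM. Col17a1 was high in KO AP replicate 3, at 2.29 FPKM with the others at 0.389 to 0.758 FPKM, and low in WT AP replicate 4, at 0.613 FPKM with the others at 1.16 to 1.21 FPKM.

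In colon, KO sham replicate 2 was low for Col4a2, at 8.10 FPKM with the others at 18.2 to 22.2 FPKM. WT sham replicate 2 was low for Col4a5, at 2.0 FPKM with the others at 3.48 to 4.08 FPKM, and for Col15a1, at 3.68 FPKM with the others at 6.56 to 7.47 FPKM. WT AP replicate 1 was high for Col12a1, at 9.12 FPKM with the others at 1.61 to 3.27 FPKM. KO sham replicate 3 was high for Col23a1, at 3.95 FPKM with the others at 0.465 to 1.40 FPKM. KO AP replicate 1 was low for Col27a1, at 1.12 FPKM with the others at 4.51 to 5.07 FPKM.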

How the results depend on the processing

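In lung the count of collagen genes differing between KO and WT in AP was 19 in the analysis reported, 18 to 20 when single libraries were left out and 18 to 20 under the other alternatives. In sham it was 16, with 13 to 18 when single libraries were left out and 11 with no filter on low values. For AP against sham in KO lung, leaving out single libraries gave 0 to 3 genes. In colon the AP count of 11 became 6 with no filter, 6 on the TPM scale and 6 under upper quartile scaling, and ranged from 4 to 12 when single libraries were left out. The colon sham count of 10 became 6 with no filter and ranged from 3 to 13 when single libraries were left out. The 84 results for single genes with an unadjusted limma p under 0.05 in the analysis reported were followed under each alternative. None of the 84 changed direction, but results chosen by a low p in the same data are unlikely to do so. Outside them, the difference of Col7a1 in sham lung, which passed on neither scale, was 0.06 in the analysis reported and -0.15 on the TPM scale. The difference of the AP responses gave 0 collagen genes under every alternative run. With the replicate number as a block, the counts were 18 and 16 in lung, and 6 and 7 in colon, for AP and sham. Libraries with the same number did not deviate together: the mean correlation was -0.017 over 30 pairs in lung and -0.071 over 27 pairs in colon, and the own number correlated best in 13 of 60 and 9 of 54 cases, so the numbers were not taken as pairs. Of the 84 results for single genes, 74 stayed on their side of the threshold on the TPM scale. With no filter 69 did, and with a pseudocount of 0.1 FPKM 83 did. The 84 include results that did not pass in the analysis reported. Of the calls, 9 were lost on the TPM scale, 15 with no filter and 1 with the pseudocount of 0.1 FPKM. The cause of the losses was not tested.

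Depth differed with genotype, and FPKM keep no counting error. Genes near 1 FPKM rest on the least evidence, and colon KO AP had 4 libraries.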
